A study of Mus musculus with 2 samples.

Results

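The Elovl family comprises the 7 condensing enzymes that start each round of fatty acid elongation in the endoplasmic reticulum, *Elovl1* to *Elovl7*. All 7 genes were represented on the arrays, by 19 of the 45037 probe sets other than controls. A probe set was counted as a member when the annotation of the platform assigned it to 1 of these symbols alone. The value of a gene was taken from its probe set with the highest mean log2 signal. RNA came from perigonadal white adipose tissue (WAT) of female C57BL/6 mice 30 weeks old. PeriA Tg mice were heterozygous for human perilipin A under the aP2 promoter/enhancer, which is active in adipocytes, and the WT controls were littermates without the transgene. Both groups had been fed a high-fat diet from 5 weeks of age and were fasted overnight before harvest. RNA of 3 mice per genotype was pooled and hybridised to 1 array, so that nothing below has an error over animals and no comparison was tested.

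A round of elongation adds a unit from malonyl-CoA to an acyl-CoA in 4 reactions: condensation by an ELOVL enzyme, reduction by HSD17B12, dehydration by a HACD enzyme and a last reduction by TECR. The ELOVL enzymes differ in the acyl chains that they accept. ELOVL6 extends palmitate to stearate, ELOVL1, ELOVL3 and ELOVL7 extend saturated and monounsaturated chains, ELOVL2 and ELOVL5 act on polyunsaturated chains, and ELOVL4 makes the longest chains of retina and skin. In fat, *Elovl3* is known for its induction in brown adipose tissue by cold, whereas *Elovl6* is a lipogenic gene controlled by SREBP-1c.

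A probe set passed the signal filter when the higher of its 2 signals, in the deposited units of the array, reached 98.2, the median signal over the pair of arrays. Of the 18193 genes, 11587 passed. The signal log ratio was the log2 of the Tg signal divided by the WT signal, and over 0.3 and under -0.3 were the limits of the study. Of the genes that passed, 16.6% were over 0.3 and 16.9% were under -0.3, and the median was 0.022. Genes over 0.3 were 49.6% of those past either limit, and 65.6% after median centring of the arrays. Adipocyte markers were bright on both arrays: 9 of 10 had a probe set and all 9 passed, with *Fabp4* at 51832 in WT against 53339 in Tg and *Adipoq*, adiponectin, at 41052 in WT against 43803 in Tg. Not all were alike between the arrays: *Pparg* (0.57) and *Lipe* (0.53) were over 0.3, *Lep* (-0.64) was under -0.3 and 6 lay between. The dimmer probe sets of *Fabp4* gave from 0.27 to 0.55.

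Of the 7 members, 4 passed the filter. *Elovl3* was over 0.3, *Elovl1*, *Elovl5* and *Elovl6* lay between the limits, and none was under -0.3. *Elovl2*, *Elovl4* and *Elovl7* stayed under the filter on both arrays. Of the 19 probe sets, 8 passed, of which 1 was over 0.3 and 1 under -0.3, while 17.8% of all 23713 passing probe sets were over 0.3 and 21.5% were under -0.3. The member probe set under -0.3 was one of *Elovl1*, whose other passing probe sets lay near 0.

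**Figure D1:**
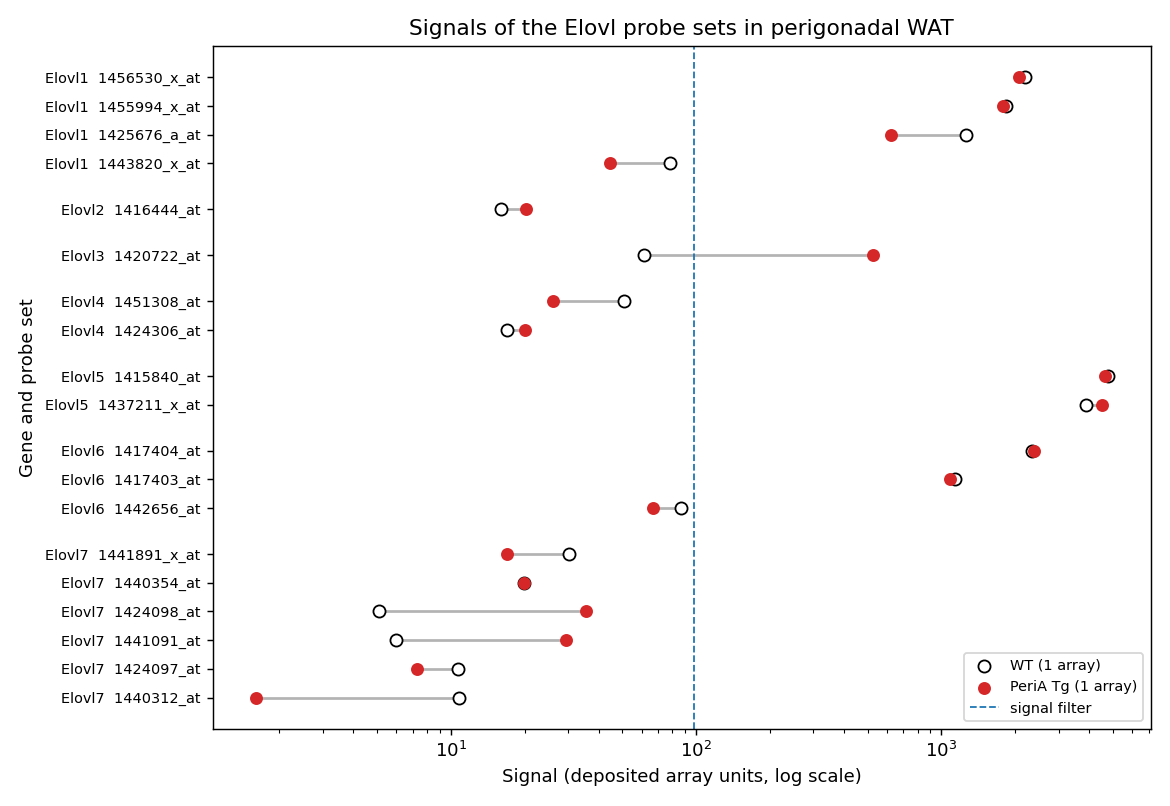
Signal of each of the 19 Elovl probe sets on the WT array (open circles) and the PeriA Tg array (red circles), on a log axis, grouped by gene with the brightest probe set first. The dashed line is the signal filter of 98.2. *Elovl3* crosses the filter, from 61.5 to 523.7, while the passing probe sets of *Elovl5* and *Elovl6* overlap or nearly overlap between the arrays.

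*Elovl3*, which makes very long chain saturated and monounsaturated fatty acids, was read by a single probe set, 1420722_at. Its signal was 61.5 in WT against 523.7 in Tg, a ratio of 8.52 and a signal log ratio of 3.09. Of the genes past the filter, 1.02% were over 1, and *Elovl3* ranked 7 of 11587 from the highest. The WT signal was under the filter and the Tg signal above it, so that the gene passed through the Tg array alone and a positive ratio was fixed by the filter. Of the 307 genes that passed in this way, 78 (25.4%) were over 1 and 3 (0.977%) exceeded the ratio of *Elovl3*. The WT signal was just above the floor of 56.9, the 40th percentile of all signals. Raising signals to that floor therefore could not change the signal log ratio, and the floor is no check on it. With a pseudocount of 25.1 it was 2.66. After median centring, quantile normalization or loess it lay between 3.14 and 3.17. In tissue RNA, more cells that express a gene and more RNA per cell cannot be told apart.

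The genes with the signal log ratios nearest to that of *Elovl3* over the 2 arrays were *Hdgfl1*, *Ccn4*, *Foxs1*, *Fabp3* and *Utf1*, at absolute differences from 0.024 to 0.37. *Fabp3*, which binds fatty acids in heart, muscle and brown adipocytes, gave 289.5 in WT against 3111 in Tg (3.43), while a second, dim probe set gave -0.013. The other 4 were dim, with WT signals from 12.9 to 21.0 and Tg signals from 111.7 to 139.4. *Fabp3* was thus the one gene of the 5 with a WT signal over the filter.

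A list of 16 brown adipocyte genes, from which *Elovl3* was left out, was set beside it. Of these, 14 had a probe set of a single symbol and 12 passed the filter, 1 of them, *Dio2*, through the Tg array alone. On the brightest probe set of each gene, all 12 were over 0.3, with a median of 1.41. Dimmer passing probe sets lay within the limits for *Ebf2* (-0.14, with 0.32 on another) and *Prdm16* (0.18). Those of *Pank1* (1.19) and *Letmd1* (0.75) were over 0.3. The summed signal of the 12 was 7185 in WT against 31005 in Tg. *Ucp1*, the uncoupling protein of brown fat, had 115.1 in WT against 7255 in Tg (5.98), *Cidea*, a lipid droplet protein, had 242.6 in WT against 5272 in Tg (4.44), and *Dio2*, the thyroid hormone deiodinase, had 25.3 in WT against 149.2 in Tg (2.56). This WT signal of *Dio2* was under the floor of 56.9, and its other probe sets, under the filter, gave -0.51 and 0.95. The smallest gene value among the 12, from the brightest probe sets, was 0.43 for *Prdm16*, a transcriptional coregulator of brown adipocytes. No signal of *Zic1* or *Lhx8*, markers of the interscapular depot, exceeded 13.8. *Elovl3* thus had a smaller ratio than *Ucp1*, *Cidea* and *Fabp3* and a larger one than *Dio2*. Many of these genes had been described in these samples before the list was made, and the list is no independent evidence on *Elovl3*.

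Other tissues that express elongases or lie beside the depot were read from marker lists. For keratinocytes and sebaceous glands, in which *Elovl3* and *Elovl4* are abundant, 2 of 7 measured markers passed, *Krt10* (231.8 in WT, 294.7 in Tg) and the desaturase *Scd3* (193.5 in WT, 146.7 in Tg), with a summed signal of 425.3 in WT against 441.4 in Tg and a median of -0.027. Of the 5 measured markers under the filter, *Krt5* had 53.3 in WT against 7.50 in Tg, *Krt14* had 26.4 in WT against 5.80 in Tg and *Trp63*, a transcription factor of basal keratinocytes, had 41.0 in WT against 81.8 in Tg. Of 9 skeletal muscle markers, 3 passed, with a summed signal of 5692 in WT against 5500 in Tg and a median of -0.71. The brightest was *Acta1*, at 5451 in WT against 5353 in Tg. Of 6 measured ovarian markers, 1 passed, *Star*, at 161.5 in WT against 229.1 in Tg (0.50) on its brightest probe set. A dimmer passing probe set of *Star* had 95.2 in WT against 208.8 in Tg (1.13), and one under the filter gave 1.12. The median signal log ratios of endothelial, fibroblast and preadipocyte, and mesothelial markers were -0.061, 0.0073 and 0.25, over 8, 6 and 6 passing genes. That of the adipocyte markers was 0.11. The keratinocyte sum rests on 2 genes and the muscle sum mostly on *Acta1*, and the part of these tissues in the value of *Elovl3* was not tested.

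*Elovl6*, the elongase of palmitate, had 2340 in WT against 2379 in Tg on its brightest probe set, a signal log ratio of 0.024. The next probe set had 1132 in WT against 1087 in Tg (-0.059). These readings differed by 0.083. The dimmest probe set, under the filter, had 86.4 in WT against 66.9 in Tg (-0.37). Both bright readings were within the SD of 0.41 that probe sets of the same gene had when pooled over 5260 genes. That spread describes repeated readings of the same RNA pools and not mice.

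*Elovl5*, which extends polyunsaturated fatty acids, had 4769 in WT against 4646 in Tg (-0.037) on the brightest probe set. The other had 3870 in WT against 4510 in Tg (0.22). After median centring the values were 0.046 and 0.30, the second just over the limit, so that the sign of the gene value turned with the scaling, and both remained under the pooled SD between probe sets.

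*Elovl1*, which makes the very long saturated and monounsaturated chains of sphingolipids, had 4 probe sets that disagreed. The brightest, 1456530_x_at, had 2185 in WT against 2066 in Tg (-0.080), and 1455994_x_at had 1824 in WT against 1786 in Tg (-0.031). In contrast, 1425676_a_at had 1264 in WT against 624.1 in Tg, a signal log ratio of -1.02. The dim 1443820_x_at, under the filter, had 78.4 in WT against 44.5 in Tg (-0.82).

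The ratios of the 3 passing probe sets spanned 0.99, whereas the median span of the 1306 genes with as many passing probe sets was 0.51, and 17.3% of these genes had a span at least as large. In the naming of Affymetrix, the suffix _x marks probe sets with probes that can match other transcripts, and _a marks alternative transcripts of one gene. Read from probe sets without an _x or _s suffix, a choice made after the values were seen, *Elovl1* was at -1.02 and was the one member under -0.3. Control probe sets also differed between the arrays. For bacterial poly-A controls, labelled with the sample RNA, the signal log ratio of the 5' probe set was lower than that of the 3' probe set in all 8 pairs, which repeat 4 bacterial transcripts, with a median difference of -0.55, against -0.0050 for the 8 pairs of hybridisation controls. For 4 mouse transcripts other than 18S ribosomal RNA, all 4 differences were under 0, from -1.67 to -0.16, with a median of -0.29. The 2 remaining pairs went the other way, mouse 18S ribosomal RNA at 0.31 and the control TrpnX at 0.44. The places of the *Elovl1* probes along the transcript were not analysed here, and the part of these differences in the value of 1425676_a_at was not tested.

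Promoter windows of RefSeq (GRCm38.p6), from 250 bases before a transcription start to 50 bases from it, were matched for 6 of the 7 members, with 8 windows. Not matched was *Elovl3*. The windows of the 3 members that passed the filter on both arrays are shown, since for these genes the arrays compare transcript signals that were read on both sides, and *Elovl1*, whose probe sets disagreed, has a pair of annotated starts. Capitals mark matches on either strand to the E-box CACGTG, the CCAAT box CCAAT or the cAMP response element TGACGTCA.
Elovl1, first start, chr4:118427843-118428142, plus strand: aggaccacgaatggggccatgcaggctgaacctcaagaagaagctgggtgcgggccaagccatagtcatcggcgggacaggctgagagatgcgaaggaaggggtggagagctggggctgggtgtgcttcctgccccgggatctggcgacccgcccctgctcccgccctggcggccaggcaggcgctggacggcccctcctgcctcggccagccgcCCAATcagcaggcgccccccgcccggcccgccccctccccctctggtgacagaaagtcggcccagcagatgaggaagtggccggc
Elovl1, second start, chr4:118429451-118429750, plus strand: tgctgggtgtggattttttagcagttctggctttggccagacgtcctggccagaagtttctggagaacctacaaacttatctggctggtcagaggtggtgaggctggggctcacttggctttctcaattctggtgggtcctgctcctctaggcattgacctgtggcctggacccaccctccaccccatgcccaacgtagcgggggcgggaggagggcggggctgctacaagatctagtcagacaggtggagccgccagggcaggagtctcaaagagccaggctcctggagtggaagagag
Elovl5, chr9:77917115-77917414, plus strand: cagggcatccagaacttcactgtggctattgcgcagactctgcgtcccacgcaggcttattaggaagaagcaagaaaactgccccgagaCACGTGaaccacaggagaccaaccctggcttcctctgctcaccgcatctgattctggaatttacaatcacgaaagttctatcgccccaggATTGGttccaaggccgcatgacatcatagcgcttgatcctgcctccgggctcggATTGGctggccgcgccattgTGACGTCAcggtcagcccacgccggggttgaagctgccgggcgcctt
Elovl6, chr3:129532136-129532435, plus strand: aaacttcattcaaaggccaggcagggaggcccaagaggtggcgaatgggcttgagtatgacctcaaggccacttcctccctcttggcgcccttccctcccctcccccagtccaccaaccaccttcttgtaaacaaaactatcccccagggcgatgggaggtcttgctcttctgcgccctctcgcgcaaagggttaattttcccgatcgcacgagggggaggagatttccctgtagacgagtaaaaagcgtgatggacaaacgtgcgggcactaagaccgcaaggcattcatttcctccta

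The *Elovl5* window held 4 matches: the E-box from base -161, CCAAT boxes on the minus strand from bases -71 and -17, and the cAMP response element from base 3, counted from the start site as 0. The first *Elovl1* window held 1 CCAAT box, from base -35, while the second *Elovl1* window and the *Elovl6* window held none of the motifs. The sterol regulatory element TCACNCCAC was searched too and was in none of the 8 windows. Of all 32851 windows of this length, 7.15% held the E-box, 37.4% the CCAAT box, 1.79% the cAMP response element and 1.24% the sterol element. The motifs do not overlap each other here. A match is a description of the letters.

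The 3 members under the filter gave no interpretable ratio. *Elovl2*, of polyunsaturated chains in liver and testis, had 16.0 in WT against 20.3 in Tg. *Elovl4* had 51.0 in WT against 26.2 in Tg on one probe set and 17.0 in WT against 20.1 in Tg on the other. The 6 probe sets of *Elovl7* had no signal over 35.4, and their signal log ratios ran from -2.75 to 2.80. Of these 6, 3 were under -0.3, 2 were over 0.3 and 1 was at 0.0073. With both signals raised to the floor of 56.9, all ratios of *Elovl2*, *Elovl4* and *Elovl7* were 0.

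**Figure D2:**
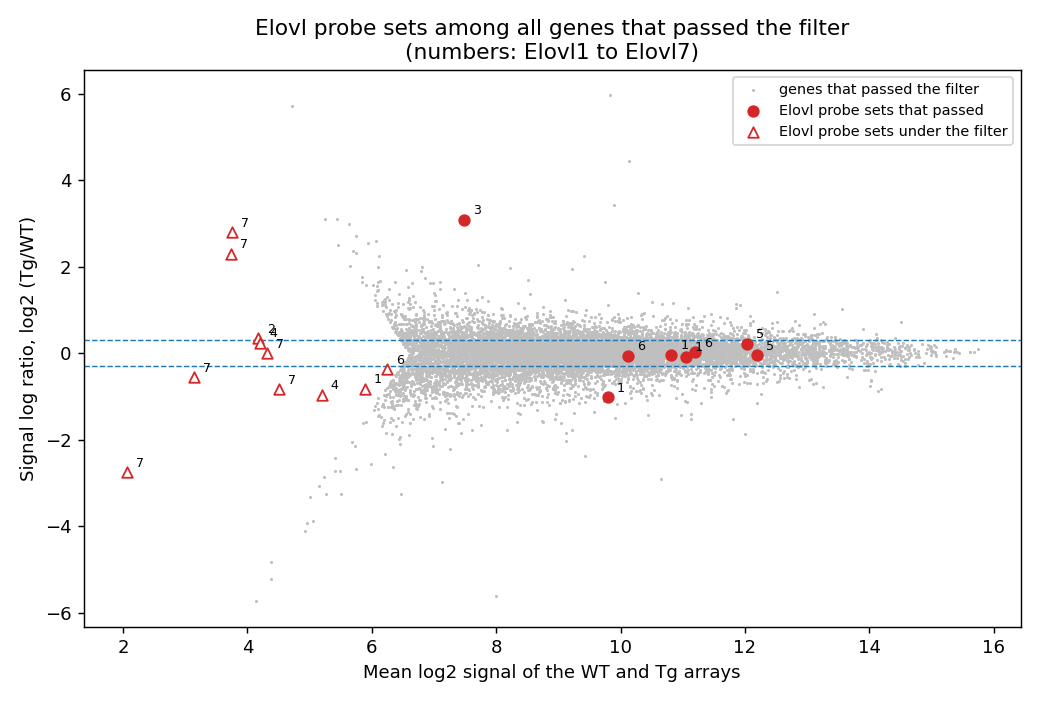
Signal log ratio of Tg over WT (log2) plotted over the mean log2 signal of the pair of arrays. Grey points are the 11587 genes that passed the filter, filled red circles the 8 Elovl probe sets that passed, open triangles the 11 under the filter, the number beside each names the member, and dashed lines mark 0.3 and -0.3. *Elovl3* lies above the cloud at 3.09, 1 probe set of *Elovl1* lies at -1.02, apart from the others of that gene that passed, and the dim probe sets of *Elovl7* scatter over both signs.

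The other enzymes of the elongation cycle that passed the filter lay between the limits. Of 7 partner genes 6 passed the filter, 0 were over 0.3 and 0 under -0.3, and their median was -0.020. *Hsd17b12*, the ketoacyl-CoA reductase, had 9112 in WT against 8739 in Tg (-0.060), with -0.34 on the second probe set. *Tecr*, the enoyl-CoA reductase, had 9902 in WT against 8461 in Tg (-0.23). Of the dehydratases, *Hacd1* had -0.031, *Hacd2* -0.0086, *Hacd3* 0.21 and *Hacd4* 0.15. *Tecrl*, a relative of *Tecr*, was under the filter.

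Of 10 fatty acid desaturases, which alternate with elongation, 8 passed, 1 was over 0.3 and 1 under -0.3, with a median of -0.14. *Fads1*, the delta-5 desaturase that acts downstream of ELOVL5, had 1712 in WT against 3066 in Tg (0.84), and its dimmer probe set had -0.042. *Scd3* had -0.40, *Degs1*, which desaturates dihydroceramide, had -0.27 and -0.57 on its probe sets, and *Fads6* had -0.26. Other desaturases within the limits on the brightest probe set had dimmer passing probe sets beyond them. *Scd2*, a stearoyl-CoA desaturase, was at -0.13 on the brightest and at -0.97 and -2.47 on the others, *Fads3* was at -0.15, -0.82 and -1.13, and *Scd1* was at 0.013 and -0.36. In contrast, *Fads2*, the delta-6 desaturase, was at 0.0089, 0.67 and 0.66. The counts of desaturases past the limits thus depend on the probe set read. For malonyl-CoA supply and fatty acid synthesis, all 9 genes passed, 4 were over 0.3 and 2 under -0.3, with a median of 0.17. *Acacb*, an acetyl-CoA carboxylase, had 621.2 in WT against 1088 in Tg (0.81), and *Acaca*, the other carboxylase, had 0.46 on its brightest probe set and -0.51 on a dim one. *Thrsp*, a lipogenic nuclear protein, had 0.57 and *Mlycd*, which removes malonyl-CoA, had 0.45. *Slc25a1*, the citrate carrier, had 5094 in WT against 3211 in Tg (-0.67), and *Me1*, malic enzyme, had -0.38 and -0.092 on its probe sets. Genes on both sides of malonyl-CoA, its makers and *Mlycd*, were thus over the limit.

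Enzymes that use, break down or make long acyl-CoA were read from 3 lists. Of 5 measured ceramide synthases, 4 passed, 0 were over 0.3 and 1 was under -0.3, *Cers4*, at 1085 in WT against 783.4 in Tg (-0.47), and the median was 0.090. The others were *Cers2* at 0.14, *Cers5* at 0.038 and *Cers6* at 0.17. Of 12 measured genes of peroxisomal oxidation, 11 passed, 1 was over 0.3 and 2 under -0.3, with a median of 0.059. These were *Ehhadh*, the bifunctional enzyme, at 0.52, *Acox3*, an acyl-CoA oxidase, at -1.07, and the thiolase *Acaa1a*, at -0.90 on its brightest probe set and 0.18 on the other. *Pex11a*, a peroxisome division protein, had 0.22 on its brightest probe set and 0.63, over the limit, on the other. Of 11 measured acyl-CoA synthetases, 6 passed, 1 was over 0.3 and 0 were under -0.3, with a median of 0.095. On dimmer passing probe sets, *Acsl4* (-0.38) and *Slc27a1* (-0.32) were under -0.3. The one gene over 0.3 was *Slc27a2*, which activates very long chain fatty acids, at 3.60 in WT against 190.4 in Tg. Like *Elovl3*, it passed through the Tg array alone. Its WT signal was under the floor, whereas that of *Elovl3* was just above the floor and under the filter.

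Of 14 measured regulators, all passed, 5 were over 0.3 and 0 under -0.3, with a median of 0.22. The 5 were *Ppara* (151.2 in WT, 591.0 in Tg, 1.97), *Ppargc1b* (0.88), *Pparg* (0.57), *Ppargc1a* (0.47) and *Insig2* (0.46), that is, 2 nuclear receptors of fatty acid metabolism, their coactivators and a protein that holds back SREBP processing. All 3 probe sets of *Ppara* were over 1. On dimmer passing probe sets, *Rxra* was under -0.3 (-0.43) and *Srebf2* over 0.3 (0.41), though both lay within the limits on the brightest. *Srebf1*, which encodes the SREBP-1 factors, had 3376 in WT against 4042 in Tg (0.26). In liver, *Elovl3* follows the circadian clock, and of 14 clock genes 13 passed, 7 were over 0.3 and 1 was under -0.3, with a median of 0.33. The shares of all passing genes were 16.6% over 0.3 and 16.9% under -0.3. *Dbp*, a clock output factor, had 303.0 in WT against 1169 in Tg (1.95), *Nr1d2* had 0.92, with -0.40 on a dim probe set, *Per3* had 0.82 and *Hlf* had 0.73. The single gene under -0.3 was *Cry1*, at -0.49. Between the limits were *Nr1d1* (-0.035), *Bmal1* (-0.038), *Clock* (-0.042), *Cry2* (-0.11) and *Per1* (0.27). Dimmer passing probe sets gave -0.12, 0.54 and 0.78 for *Clock* and 0.43 for *Bmal1*. The part of the regulators and of the clock in the value of *Elovl3* was not tested.

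**Figure D3:**
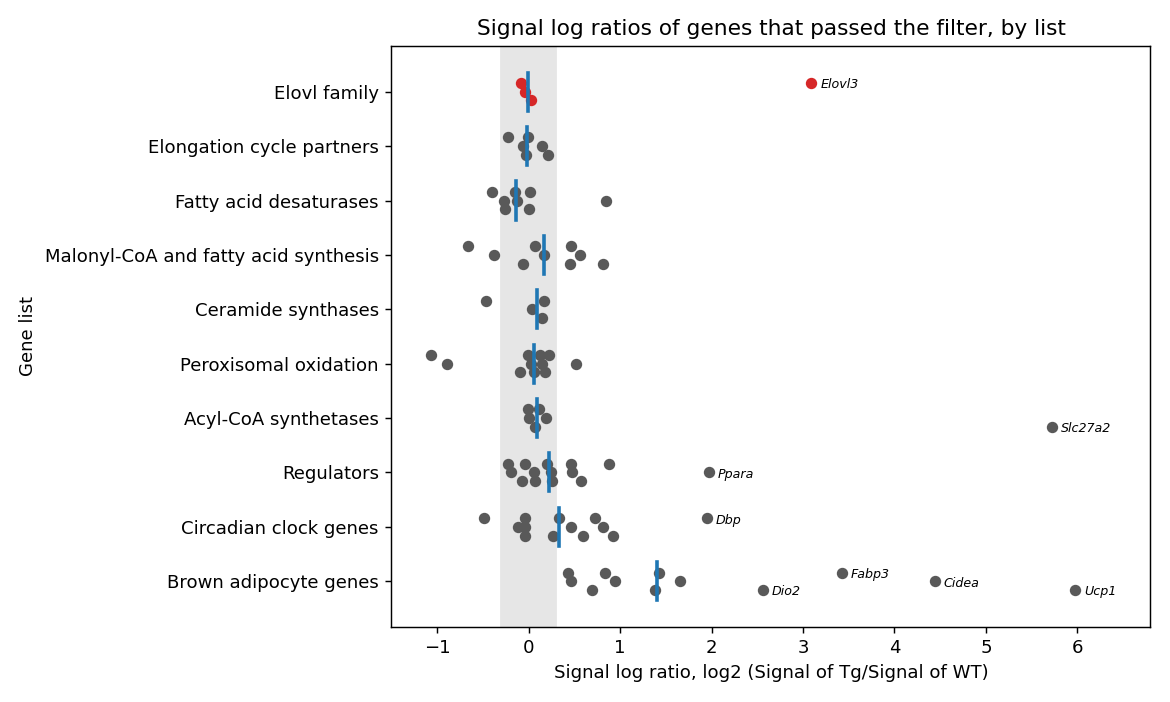
Signal log ratios of Tg over WT (log2) for genes that passed the filter, one point per gene, for the Elovl family (red) and 9 lists, with 1 array per genotype. Vertical bars are medians, the grey band covers -0.3 to 0.3 and the height within a row has no meaning. Apart from *Elovl3*, the Elovl genes lie in the band with the partners of the elongation cycle, and the brown adipocyte genes lie to its right.

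Of the macrophage markers, all 10 passed, 4 were under -0.3 and 0 over 0.3, with a median of -0.26 and a summed signal of 47070 in WT against 39070 in Tg. The 4 were *Trem2* (-1.85), *Itgax* (-1.35), *Itgam* (-1.22) and *Cd68* (-1.13). The other 6 ran from -0.28 for *Adgre1* to 0.18 for *Cd14* on their brightest probe sets. Dimmer passing probe sets of *Csf1r* gave 0.16 and -0.51. Macrophages also express elongases, and their part in the values of the Elovl genes was not tested.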

How the data were processed

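The authors pooled RNA of 3 mice per genotype, labelled it and hybridised each pool to 1 Affymetrix Mouse Genome 430 2.0 array. The deposited intensity values are signals of GeneChip Operating Software ver1.4 on a linear scale, and the submitters' processing notes name MAS5. The 2% trimmed mean of each array was 500.0. Detection calls were not used here, and the signal filter stands in for them. From the deposited signals, signal log ratios were computed with no pseudocount and no further normalization. Symbols came from the annotation of the platform, updated through gene IDs to RefSeq (GRCm38.p6): 34945 probe sets had 1 symbol, 932 several and 9160 were not listed.

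With 1 array per genotype there is no test, and the number of arrays limits the precision. The members, the 18 lists and the limits were chosen with earlier results of these data known. The text names all members and partners, up to 4 genes of each other list with the largest values, and the 5 genes nearest to *Elovl3*, predicted genes left out. Further genes, and the motifs, were picked with their values known. Alternatives were 3 scalings (loess with a span of 0.3), a pseudocount, a floor, other probe sets, no filter, a filter at 470.5 and limits of 1 and -1. The computation was tested on simulated data, with shifts planted in bright probe sets only and noise smaller than the spread between probe sets. That test checks the code and not the reliability of these signals. Python 3.11.15, numpy 2.4.6, pandas 2.3.3, statsmodels 0.14.6 and matplotlib 3.10.9 were used.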

Additional observations from a re-analysis of the deposited data

How the results depend on the processing

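A value was taken to have moved when it differed by at least 0.41, the pooled SD of probe sets that share a gene, since there are no replicates. Of the 201 values recomputed under an alternative, 183 stayed within this or, for counts, within 1.5 times. This tolerance is wider than the limit of 0.3, so that a value could cross the limit and count as unmoved. The median of the regulators went from 0.22 to 0.31 with median centring. That of the clock genes went from 0.33 to 0.28 with the pseudocount. With the pseudocount of 25.1, *Elovl3* was at 2.66. Read from probe sets without an _x or _s suffix, a setting added with the values known, *Elovl1* was at -1.02 and the number of Elovl genes under -0.3 was 1, against 0. From second-brightest probe sets, 0 Elovl genes were over 0.3, since *Elovl3* has no second probe set. Without the filter, 2 Elovl genes were over 0.3 and 2 were under -0.3, the added ones being *Elovl2*, *Elovl4* and *Elovl7*. Among these dim genes, *Elovl4* turned to 0.24 on its second-brightest probe set, and *Elovl7* to 0.0073 on its second-brightest one, which is also its brightest without a suffix or without _x and _s. Among the markers, the median of skeletal muscle was -0.026 with the stricter filter of 470.5, and without the filter that of keratinocytes and sebaceous glands was -0.47 and that of the ovary -0.30. With the stricter filter *Acta1* alone was counted for muscle, and without the filter the other medians took in the dim markers. The cause of the differences between probe sets of the same Elovl gene was not tested. *Elovl1* has no probe set without a suffix, and that setting gave it no value. No paired analysis was possible because each genotype has 1 array, and for the same reason no replicate could be left out. Low signals limit *Elovl2*, *Elovl4* and *Elovl7*, for which no level was read above the filter.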
